A study of Mus musculus with 138 samples.

Results

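Genes that carry out or direct the removal of maternal mRNA were followed through mouse embryos at the 2-cell stage with and without the chromatin remodeller SMARCA5. The 10 members were Btg4, Cnot7, Cnot6l, Cnot1, Pan2, Zfp36l2, Ythdf2, Pabpn1l, Zcchc11 and Zcchc6. They were chosen by name for their known role in mRNA decay, and all 10 were found among the 25900 genes of the deposited tables. Of 135 embryo libraries, 116 held at least 100000 counts and were used.

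The libraries hold polyadenylated RNA from single wells with 1 embryo each, taken from the RNA side of a method that also reads DNA methylation and chromatin accessibility. In the deletion experiment, 28 libraries used here were labelled Smarca5 +/- (mat KO), from matings of females with the maternal knockout to wild-type males, and are called maternal deletion. The 22 libraries labelled Smarca5 +/+ form the wild-type group. Titles in either genotype group name matKO females, so the labels do not tell the mothers apart, and the genotype of the embryo differs along with the labelled maternal loss. The labels do not give the strain, the age of the animals or what drove the deletion. In the TrimAway experiment, wild-type embryos were injected at the zygote stage and collected at least 1 day later. TrimAway sends a protein to degradation through an injected antibody and the ubiquitin ligase TRIM21. There were 31 libraries labelled a-Smarca5, called anti-SMARCA5, 20 labelled IgG, the injected control, and 15 labelled No injection ctrl, called uninjected. Replicate numbers mark pools of embryos that the submitters called technical replicates, so p-values measure the spread between embryos of these pools. All 6 IgG libraries of replicate 2 fell under the count minimum, and the uninjected group had no library of that number. The 7 anti-SMARCA5 libraries of replicate 2 thus had no control of the same number.

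A fertilised egg starts with RNA made by the oocyte, and most of it is destroyed before and during activation of the embryo's own genome. The CCR4-NOT complex shortens poly(A) tails, with CNOT7 and CNOT6L as catalytic subunits and CNOT1 as the scaffold, and BTG4 brings the complex to translated mRNAs. PAN2 is the nuclease of a second deadenylase complex. ZFP36L2 binds AU-rich elements and YTHDF2 binds m6A-marked mRNA, and both recruit CCR4-NOT, while PABPN1L is a poly(A)-binding protein of oocytes and early embryos that works with BTG4. The uridyltransferases Zcchc11 (TUT4) and Zcchc6 (TUT7) add uridine to short tails. Several of these transcripts are themselves stored in the oocyte and cleared later, so their own level in a 2-cell embryo depends on storage, decay and tail length as well as on transcription.

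Promoter windows are shown for Btg4 and Cnot6l, which varied together between embryos, and for Ythdf2, which ran the other way between the deletion groups. Each window covers 250 bases before and 50 bases after a RefSeq transcript start on GRCm38.p6, on the gene's own strand from 5′ to 3′, with a CCAAT box (CCAAT) or GC box (GGGCGG) on either strand in capitals. The Btg4 window lies at chr9:51115751-51116050 on the plus strand, the Cnot6l window at chr5:96161941-96162240 on the minus strand and the Ythdf2 window at chr4:132212207-132212506 on the minus strand.
Btg4: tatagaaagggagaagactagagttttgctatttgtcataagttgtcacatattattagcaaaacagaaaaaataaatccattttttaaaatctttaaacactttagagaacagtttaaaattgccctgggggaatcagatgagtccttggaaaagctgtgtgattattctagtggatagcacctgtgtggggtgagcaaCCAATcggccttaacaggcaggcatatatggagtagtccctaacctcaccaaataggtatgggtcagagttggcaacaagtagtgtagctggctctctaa
Cnot6l: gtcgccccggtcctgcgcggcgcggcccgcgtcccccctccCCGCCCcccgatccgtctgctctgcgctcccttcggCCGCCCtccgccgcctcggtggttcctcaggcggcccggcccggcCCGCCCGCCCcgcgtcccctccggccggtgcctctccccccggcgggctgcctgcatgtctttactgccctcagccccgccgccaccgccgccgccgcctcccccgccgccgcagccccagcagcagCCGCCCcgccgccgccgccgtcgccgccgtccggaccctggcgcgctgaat
Ythdf2: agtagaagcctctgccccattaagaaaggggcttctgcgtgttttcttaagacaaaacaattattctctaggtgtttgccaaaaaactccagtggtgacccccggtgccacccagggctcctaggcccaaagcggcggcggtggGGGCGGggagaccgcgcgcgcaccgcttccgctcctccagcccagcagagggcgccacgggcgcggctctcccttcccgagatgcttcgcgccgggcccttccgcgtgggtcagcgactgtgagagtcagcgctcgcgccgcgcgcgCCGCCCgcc
The Btg4 window held 1 CCAAT box, no GC box and 1 CpG, fewer than most promoters, since 5.43% of 32851 windows of the same length had fewer. The table has 3 windows for Cnot6l, of which the one shown starts farthest upstream and held 5 GC boxes and 49 CpG, more than 99.0% of windows, with 82.7% of its bases G or C. The other two held 2 and 1 GC boxes, 40 and 31 CpG, more than 96.1% and 89.4% of windows, and 75.7% and 67.0% G or C. The Ythdf2 window held 2 GC boxes and 32 CpG, more than 90.5% of windows. Of all windows, 37.4% held a CCAAT box and 35.7% a GC box. A TATA box (TATAAA) was in 13.6% of all windows, and the motif TCAAGGNCA of the 2-cell stage factor NR5A2, with N for any base, in 1.62%. Neither was found in a member's window on either strand, among the 7 of 10 members with a window in the RefSeq table. Cnot1, Cnot7 and Zfp36l2 had no entry there. Btg4 and Cnot6l thus had unlike windows by base composition, and Cnot7, which varied with them, had no window to compare.

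Because the libraries were made from polyadenylated RNA, a tail that lengthens or shortens can change a count with no change in the number of molecules. Cytoplasmic polyadenylation elements (CPE) are the sites through which stored oocyte mRNAs gain tails, and TTTTAT and TTTTAAT were searched on the sense strand in the last 150 bases of principal GENCODE transcripts. At least 1 was present in 20.9% of 28736 such transcripts and in those of Btg4, Ythdf2 and Pan2, but not of Cnot6l, Pabpn1l, Zcchc11 or Zcchc6. Only members with a promoter window were examined, so the 3′ ends of Cnot1, Cnot7 and Zfp36l2 were not searched. The transcripts shown held 2 elements in Btg4, 1 in Ythdf2 and 3 in Pan2. Another principal transcript of Btg4, not shown, held 2, the last starting 96 bases from its 3′ end. The 3 windows below show the last element of a transcript in capitals with its flanks. It starts 67 bases from the 3′ end in Btg4, 102 in Ythdf2 and 18 in Pan2.
Btg4 3′ end: ataaatccctTTTTATgtctttttaa
Ythdf2 3′ end: ctgccaaactTTTTATtataaaatat
Pan2 3′ end: ataaaagtatTTTTATctcattagaa
Such a match describes the letters only, and tail length was not measured.

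The kept libraries held 109007 to 12004992 counts, and values below are CPM, the counts of a gene relative to the size of its library after scaling by TMM factors, which correct for a few genes taking much of a library. Depth differed within the deletion experiment, with a median of 4686051 counts in maternal deletion replicate 2 and 702651 in replicate 1, against 650105 and 429980 in wild type. The 2 replicates of that experiment ran on different sequencing lanes, so lane and collection cannot be told apart. Markers of the 2-cell stage were present in every library, with a summed level of at least 35.0 CPM. Summed markers of cumulus and granulosa cells reached 156 CPM, of sperm 36.1 CPM and of blood 136 CPM. Those of blastocyst lineages reached 1193 CPM in maternal deletion and 448 CPM in anti-SMARCA5, with group medians of 44.2 to 102 CPM. Smarca5 RNA had a median of 328 CPM in wild type (151 to 810) and 95.6 CPM in maternal deletion (3.04 to 341), a drop of the fitted log2 level by 2.06 (SE 0.31, adjusted p = 2.63e-07 in edgeR). Among 4 libraries whose content went against their label, maternal deletion replicate 2 well A04 held 266 CPM of Smarca5 and 18.7 CPM of the oocyte gene Gdf9, where the other 27 held 1139 to 27183. Wild type wells G05 and H05 of replicate 2 held the lowest Smarca5 values of their group, 160 and 151 CPM, and its highest Gdf9 values, 653 and 253 CPM. In the TrimAway experiment Trim21 RNA had a median of 1442 CPM in anti-SMARCA5 but was 0 in well C02 of replicate 2. It was 0 in all 10 IgG libraries of replicate 1 and between 0 and 2207 CPM in IgG replicate 3. All these libraries stayed in their labelled groups, and results that move without the 4 that went against their labels are given both ways. The IgG libraries of replicate 1 are not among the 4, and were left out only together with all other libraries of that number. In RNA from whole embryos, less RNA per cell and fewer cells cannot be told apart.

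By group mean per kilobase of exon, Btg4 was the highest member in each of the 5 groups and Cnot7 the second. Mean Btg4 level was 404 CPM per kb in wild type, 827 in maternal deletion, 520 in anti-SMARCA5, 315 in IgG and 165 in uninjected embryos. Cnot7 followed at 121, 370, 274, 196 and 92.4 CPM per kb in the same order of groups. Ythdf2 was next in wild type, IgG and uninjected embryos, at 109, 66.8 and 62.3 CPM per kb. In maternal deletion and anti-SMARCA5 that place was taken by Cnot6l, at 65.3 and 73.5 CPM per kb, with Ythdf2 at 49.5 and 44.8. The scaffold Cnot1 stayed between 7.19 and 14.0 CPM per kb. The lowest were Zfp36l2 in wild type (0.570), Zcchc6 in maternal deletion (2.27) and Pabpn1l in the 3 TrimAway groups (1.18 to 2.21). This order of means does not hold for the medians of every pool. In the 14 wild-type embryos of replicate 2, Ythdf2 had the highest median. It was 500 CPM, not divided by length, against 166 for Cnot7 and 76.9 for Btg4. The plot of levels per kilobase shows the order of the members by mean in each group.

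**Figure D1:**
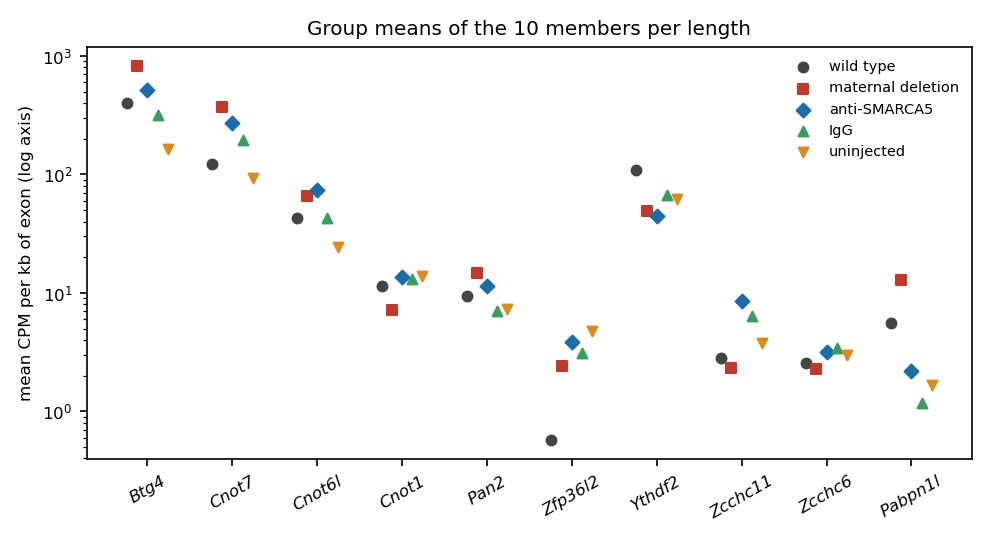
Mean level of each member in CPM per kb of exon (vertical log axis) in the 5 groups, 1 symbol per gene and group, without error bars. Btg4 and Cnot7 are the highest 2 members in every group, and the order below them differs between groups.

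Between the deletion groups, the catalytic subunit Cnot7 was higher in maternal deletion, and Ythdf2 and the scaffold Cnot1 were lower. The other 6 of the 9 members tested did not pass the threshold when the groups were compared without regard to collection. By direction 1 member was higher and 2 were lower, and the median log2 fold change over the 9 was 0.55 against 0.18 over all 8518 genes tested. Of those genes 56.6% were called changed (30.3% higher and 26.4% lower), so the members' 3 of 9 is no more than the background.

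Cnot7 (chromosome 8, positions 40492540 to 40515847) ran from 57.3 CPM through a median of 313 to 2804 in wild type and from 157 through 1705 to 5710 in maternal deletion. In maternal deletion 27 of 28 embryos lay above the wild-type median, and the exception was the A04 library with its deviating label. Cnot7 rose by 1.55 on the log2 scale, 2.93-fold (SE 0.37, edgeR adjusted p = 0.000493). Within collections the rise was 2.61 in replicate 2 (adjusted p = 1.31e-05) and 0.85 in replicate 1 (adjusted p = 0.0251). In replicate 2, 11 of 15 deletion embryos were above the highest of 14 wild-type embryos, and in replicate 1, 5 of 13 were above the highest of 8. Cnot7 shares 247 exon bases with Zdhhc2 on the opposite strand, and the sources used here do not give how strand was handled.

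Btg4 (chromosome 9, positions 51116001 to 51119700) ran from 19.9 CPM through a median of 449 to 4313 in wild type and from 98.1 through 1685 to 5927 in maternal deletion. The difference of 0.99 on the log2 scale (SE 0.52, edgeR adjusted p = 0.0974) missed the threshold. The spread within wild type was wide, from a median of 1919 CPM in replicate 1 to 76.9 in replicate 2, and all 15 deletion embryos of replicate 2 lay above that second median. Wild type well G05 alone reached 3201 CPM in replicate 2. In the fit blocked by replicate number and without the libraries that went against their labels, Btg4 was called higher (log2 fold change 1.54, edgeR adjusted p = 0.00220). Of the libraries left out, A04 held the lowest Btg4 of the 28 deletion embryos and G05 ranked 2 from the highest of 22 in wild type. Leaving them out thus raises the Btg4 difference by itself.

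Cnot6l (chromosome 5, positions 96070333 to 96164171) ran from 33.9 CPM through 257 to 2013 in wild type and from 83.1 through 577 to 1507 in maternal deletion. The difference of 0.55 (SE 0.35, edgeR adjusted p = 0.170) did not pass the threshold, while the blocked fit gave 0.74 (adjusted p = 0.0125). By collection it was 1.37 in replicate 2 (adjusted p = 0.00469) and -0.0044 in replicate 1. In replicate 2, 8 of 15 deletion embryos exceeded every wild-type embryo, and in replicate 1 the medians of 876 and 798 CPM were close. A test of the difference between the collections did not pass for Cnot6l (1.25, SE 0.49, edgeR adjusted p = 0.185).

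Cnot1 (chromosome 8, positions 95719451 to 95807462), the scaffold on which those nucleases sit, moved the other way. It ran from 64.1 CPM through 206 to 366 in wild type and from 10.8 through 120 to 257 in maternal deletion, with 25 of 28 deletion embryos under the wild-type median. Cnot1 fell by 0.79 on the log2 scale, 1.73-fold (SE 0.23, edgeR adjusted p = 0.00323). Within single collections it did not pass, at -0.86 (adjusted p = 0.0542) in replicate 1 and -0.62 (adjusted p = 0.0827) in replicate 2. Parts of its transcript have a copy elsewhere, up to 903 bases at 90% identity or more in Gm17752 and Gm6158, 1 of which is in the tables.

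Pan2 (chromosome 10, positions 128303335 to 128321358) had medians of 42.3 CPM in wild type (0 to 382, with 3 embryos at 0) and 83.2 CPM in maternal deletion (24.0 to 504). The difference of 0.58 on the log2 scale (SE 0.44, edgeR adjusted p = 0.265) was within the spread. It was 1.01 (adjusted p = 0.0452) with the replicate block and without the libraries that went against their labels. Of these, G05 ranked 3 from the highest of 22 wild-type embryos for Pan2 and A04 25 of 28 in maternal deletion.

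Ythdf2 (chromosome 4, positions 132184912 to 132212303) had the smallest adjusted p of the members between the deletion groups. It ran from 164 CPM through 463 to 867 in wild type and from 101 through 186 to 388 in maternal deletion. All 28 deletion embryos lay below the wild-type median and 10 lay below the lowest wild-type embryo, and the highest deletion value came from the A04 library. Ythdf2 fell by 1.28 on the log2 scale, 2.42-fold (SE 0.20, edgeR adjusted p = 6.45e-07). The fall was 0.94 in replicate 1 (adjusted p = 0.00462) and 1.35 in replicate 2 (adjusted p = 0.000157). Near copies of up to 1840 bases exist in Gm6823 and Gm8401, neither of which is in the tables, so reads from them could not be set apart.

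The other 2 binding proteins were near the limit of detection. Zfp36l2 (chromosome 17, positions 84183931 to 84187947) had at most 3 counts in 17 of 22 wild-type and 9 of 28 deletion embryos, with medians of 1.34 and 7.71 CPM, and did not pass the filter on low counts. Pabpn1l (chromosome 8, positions 122619471 to 122622739) had at most 3 counts in 16 wild-type and 8 deletion embryos. Its medians were 0.933 and 9.80 CPM and its highest values 46.6 and 58.4, the first in the G05 library, and the difference of 1.11 on the log2 scale (SE 0.75, edgeR adjusted p = 0.199) was not called. Depth differed between these groups, so a share of embryos without counts is no measure of expression here.

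The uridyltransferases were not called over all embryos, and their values in the 2 collections lay on opposite sides of 0. Zcchc11 (chromosome 4, positions 108459426 to 108559421) had medians of 18.2 CPM in wild type (0 to 77.2) and 3.76 CPM in maternal deletion (0 to 127), with at most 3 counts in 13 of 28 deletion embryos. Its log2 fold change was -0.37 (SE 0.63, edgeR adjusted p = 0.625). In replicate 1 it was -1.41 (adjusted p = 0.197), with medians of 33.1 CPM in wild type and 0.754 in maternal deletion and 10 of 13 deletion embryos below the lowest wild-type embryo, and in replicate 2 it was 0.39 (adjusted p = 0.713). Zcchc6 (chromosome 13, positions 59771879 to 59823147) had medians of 36.9 CPM (8.48 to 60.7) and 23.1 CPM (1.78 to 79.4), differing by -0.31 on the log2 scale (SE 0.30, edgeR adjusted p = 0.385). In replicate 1 all 13 deletion embryos lay below the wild-type median of Zcchc6, at a log2 fold change of -1.10 (adjusted p = 0.0556), and in replicate 2 it was 0.21 (adjusted p = 0.683). The difference between the collections did not pass for either gene (edgeR adjusted p = 0.527 for Zcchc11 and 0.346 for Zcchc6). Zcchc6 shares up to 1299 exon bases with Gm49354 and Etohd2, so its counts may hold reads of these genes.

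In the blocked fit, with the replicate number as a term, 4 of 9 members were called in the deletion comparison, against 57.6% of all genes tested. Blocked and without the libraries that went against their labels, 6 of 8 were called (Cnot7, Btg4, Cnot6l and Pan2 higher, Cnot1 and Ythdf2 lower), against 62.1% of all genes. Those libraries were set apart by Smarca5 and Gdf9 RNA. Among them, A04 held the lowest Btg4 and Cnot7 and the highest Ythdf2 of maternal deletion. Leaving it out widens these differences by itself, so the 6 calls are no separate support. The summed level of 18 oocyte transcripts known to be cleared had a median of 2610 CPM in wild type (1297 to 8813) and 14286 CPM in maternal deletion (1876 to 34173). In wild type 17 of the 18 were above 3 counts in at least 1 library, and in each of the other groups all 18 were. The summed 2-cell markers had medians of 1197 CPM in wild type (666 to 2043) and 335 CPM in maternal deletion (61.2 to 2936). The part of either shift in the members' values was not tested. With every library thinned to 100000 counts the same 3 members passed, Cnot7 at 1.36, Ythdf2 at -1.59 and Cnot1 at -1.08, where 68.4% of the genes still tested were called.

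**Figure D2:**
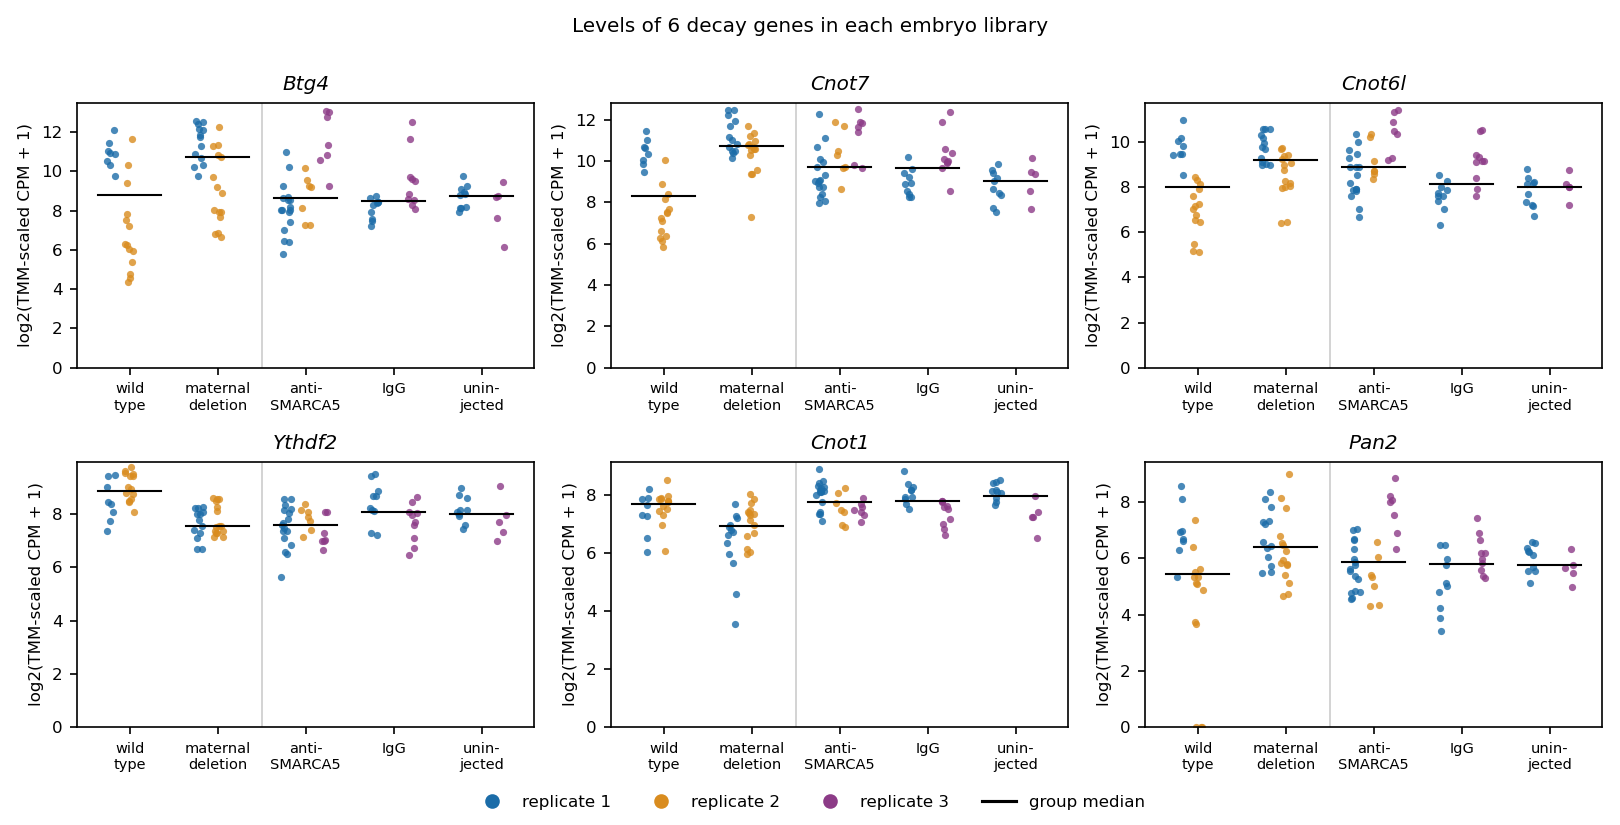
Level of 6 members in log2(TMM-scaled CPM + 1) on the vertical axis, by group on the horizontal axis, with 1 point per kept embryo library, colours for replicate numbers and a bar at the group median. Cnot7 points of maternal deletion sit high and its Ythdf2 points low, and the groups overlap for all 6 members shown.

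The TrimAway experiment asks whether removing the protein from the zygote changes the same genes. Set against uninjected embryos, anti-SMARCA5 embryos were higher in Btg4, Cnot6l and Cnot7 and lower in Ythdf2, 4 of 9 members tested, where 27.9% of all 10750 genes were called (17.5% higher and 10.4% lower). This split rested on the scaling, with 1885 genes higher and 1114 lower by TMM but 409 and 1874 by total counts, a shift of the median log2 fold change from 0.13 to -0.29. By total counts 3 members were called, Btg4 no longer among them, against 21.2% of all genes. Set against the injected IgG control, 0 of 9 members were called by edgeR, where 3.03% of all genes were called (181 higher and 136 lower by TMM, 17 and 47 by total counts). There 2 members (Ythdf2 and Cnot6l) had an unadjusted p under 0.05, as did 26.4% of all genes, and DESeq2 called 1 (Ythdf2) and 12.3% of all genes. IgG against uninjected embryos gave 0 of 9 by edgeR, where 0.00% of all genes were called. There 4 members (Btg4, Cnot6l, Cnot7 and Zcchc11, all higher in IgG) had an unadjusted p under 0.05, as did 14.5% of all genes, and DESeq2 called 1 (Cnot7) and 2.29% of all genes. Pabpn1l did not pass the filter in these comparisons. The anti-SMARCA5 and the uninjected libraries each enter more than 1 of these comparisons, which are therefore not independent.

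Cnot6l ran from 102 CPM through a median of 476 to 2733 in anti-SMARCA5 embryos, from 77.6 through 277 to 1475 in IgG and from 102 through 257 to 447 in uninjected embryos. Cnot6l rose by 1.49 on the log2 scale against uninjected embryos (SE 0.33, edgeR adjusted p = 0.00185), and the difference was 0.71 against IgG (SE 0.32, adjusted p = 0.146). That of IgG from uninjected embryos was 0.77 (SE 0.30, edgeR adjusted p = 0.216). In 24 of 31 anti-SMARCA5 embryos Cnot6l lay above the IgG median. Without replicate 3 the difference from IgG was 1.19 (adjusted p = 0.0423), and with the replicate block 1.04 (adjusted p = 0.00576). The fit without replicate 3 takes its IgG embryos from replicate 1 alone, whose libraries held no Trim21 RNA.

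Cnot7 ran from 254 CPM through 853 to 5816 in anti-SMARCA5, from 307 through 805 to 5309 in IgG and from 183 through 531 to 1153 in uninjected embryos. Of 31 anti-SMARCA5 embryos 21 were above the uninjected median and 12 above the highest uninjected embryo. Cnot7 rose by 1.48 against uninjected embryos (SE 0.38, edgeR adjusted p = 0.00478). The difference from IgG was 0.42 (SE 0.35, adjusted p = 0.430), and that of IgG from uninjected embryos 1.05 (SE 0.33, adjusted p = 0.164). Without replicate 1, which leaves 14 anti-SMARCA5 and 5 uninjected embryos, Cnot7 (1.83, adjusted p = 0.112) and Cnot6l (1.92, adjusted p = 0.108) were larger against uninjected embryos but not called. The IgG embryos lay between the other groups in the mean and reached nearly as high as anti-SMARCA5.

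Btg4 had nearly the same median in anti-SMARCA5 (397 CPM, 55.0 to 8551), IgG (357 CPM, 145 to 5908) and uninjected embryos (419 CPM, 70.4 to 879), but a far wider upper range in both injected groups. The rise of 1.51 against uninjected embryos (SE 0.53, edgeR adjusted p = 0.0286) rested on replicate 3. There all 7 anti-SMARCA5 embryos were above the uninjected median and 6 above its highest value, whereas in replicate 1 only 3 of 17 were above that median. Without replicate 3 the log2 fold change was -0.05 (adjusted p = 0.933), and with the block it was 0.65 (adjusted p = 0.259). Scaled by total counts alone it was 0.85 (adjusted p = 0.185), and without replicate 1 it was 2.62 (adjusted p = 0.129). Against IgG it was 0.64 (SE 0.50, adjusted p = 0.391), and IgG differed from uninjected embryos by 0.87 (SE 0.41, edgeR adjusted p = 0.318).

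Ythdf2 ran from 48.7 CPM through 190 to 382 in anti-SMARCA5, from 88.0 through 273 to 723 in IgG and from 126 through 259 to 525 in uninjected embryos. Ythdf2 fell by 0.57 against uninjected embryos (SE 0.22, edgeR adjusted p = 0.0431), and the difference from IgG was -0.66 (SE 0.22, adjusted p = 0.0659). In 24 of 31 anti-SMARCA5 embryos it lay below the IgG median and in 20 of 31 below the uninjected one. The fall against uninjected embryos was near the threshold and was lost at 500000 counts or more (adjusted p = 0.0677), after thinning (0.0502), with no filter on low counts (0.0568) and without replicate 3 (0.122) and without replicate 1 (-0.49, 0.433). Against IgG the block gave -0.83 (adjusted p = 0.00780) and DESeq2 -0.68 (adjusted p = 0.0319). IgG differed from uninjected embryos by 0.09 (SE 0.25, adjusted p = 0.897).

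Cnot1, which fell with the deletion, was not called in any TrimAway comparison. Its medians were 213 CPM in anti-SMARCA5 (116 to 467), 218 in IgG (97.9 to 450.0) and 249 in uninjected embryos (89.6 to 365). The log2 fold change was -0.02 against IgG (SE 0.17, edgeR adjusted p = 0.948) and -0.15 against uninjected embryos (SE 0.18, adjusted p = 0.530). Tested in 1 fit of 4 groups, the deletion effect minus the TrimAway effect against IgG was -0.83 for Cnot1 (SE 0.28, edgeR adjusted p = 0.0267). It was the only one of 10 members called there, where 19.2% of all genes were called. By total counts Cnot7 was called in its place (1.16, adjusted p = 0.0371), 1 of 10 members against 20.3% of all genes. The Cnot1 call was lost with the block (-0.74, adjusted p = 0.0580), with scaling by total counts (-0.84, 0.0532) and without the libraries that went against their labels (-0.62, 0.0991). For Cnot7 the difference of effects was 1.03 (SE 0.51, adjusted p = 0.140) and for Ythdf2 -0.68 (SE 0.30, adjusted p = 0.0908).

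Pan2 had medians of 57.9 CPM in anti-SMARCA5 (19.0 to 456), 54.4 in IgG (9.72 to 170) and 53.2 in uninjected embryos (30.6 to 94.3). Its log2 fold change was 0.60 against IgG (SE 0.32, edgeR adjusted p = 0.217), and 0.84 with the replicate block (adjusted p = 0.0183). With the block 3 of 9 members (Cnot6l, Ythdf2 and Pan2) were called against IgG, where 25.8% of all genes were. Against uninjected embryos the block called 3 of 9 members, 2 higher and 1 lower, where 31.9% of all genes were called. The block compares embryos within replicates 1 and 3, since replicate 2 had no IgG library that was used and no uninjected library. In replicate 1 the IgG libraries held no Trim21 RNA, so antibody and Trim21 differ together there and cannot be told apart.

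Zcchc11 ran from 0 through a median of 49.7 to 312 CPM in anti-SMARCA5, with medians of 44.3 in IgG (9.59 to 184) and 25.5 in uninjected embryos (8.24 to 78.4). Against uninjected embryos the difference of 1.11 (SE 0.44, edgeR adjusted p = 0.0510) missed the threshold, while without replicate 3 it was 1.63 (adjusted p = 0.0138). That of IgG from uninjected embryos was 0.78 (SE 0.33, edgeR adjusted p = 0.265). Zcchc6 was nearly level, with medians of 42.5, 46.9 and 42.4 CPM in anti-SMARCA5, IgG and uninjected embryos. Zfp36l2 had medians of 12.3, 9.72 and 13.6 CPM and Pabpn1l of 1.75, 0.926 and 0.532 CPM in that order. Zcchc6 and Zfp36l2 were tested and not called in any TrimAway comparison.

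**Figure D3:**
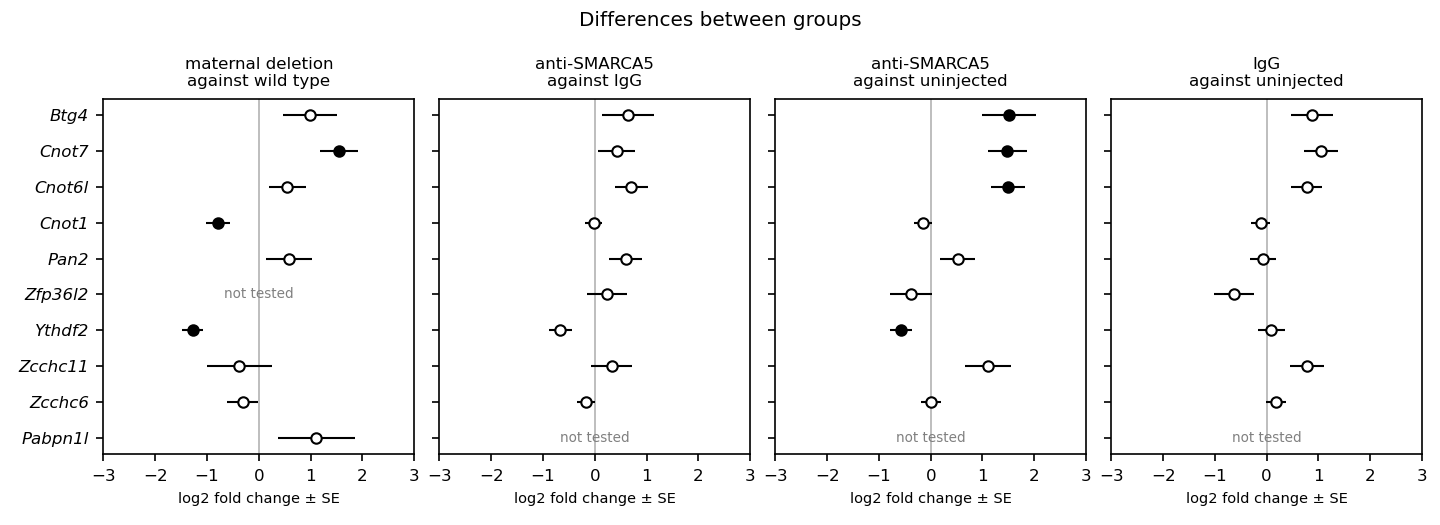
Log2 fold change of each member with its standard error (horizontal axis) in the 4 comparisons of groups, filled where the edgeR adjusted p was under 0.05. Cnot7 is filled on the higher side and Ythdf2 on the lower side both for the deletion and for anti-SMARCA5 against uninjected embryos, and no member is filled against IgG or for IgG against uninjected embryos.

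Among relatives of the members, Pabpn1, the nuclear poly(A)-binding protein gene, fell by 2.20 with the deletion (SE 0.36, edgeR adjusted p = 1.64e-06). None of Cnot6, Cnot8, Pan3, Ythdf1 or Ythdf3 was called there. In anti-SMARCA5 against uninjected embryos, where 27.9% of all genes were called, relatives of the members moved in both directions. Cnot6, which encodes the close relative of CNOT6L, rose by 1.04 (adjusted p = 0.00553), and Cnot8, which encodes that of CNOT7, fell by 0.72 (adjusted p = 0.0144). Ythdf3 rose by 1.17 (adjusted p = 0.00682) while Ythdf1 fell by 0.75 (adjusted p = 0.0161). Pan3, the partner of Pan2, rose by 0.84 (adjusted p = 0.0157), and Zfp36l1, the relative of Zfp36l2, by 2.01 (adjusted p = 0.0378). Scaled by total counts the falls of Cnot8 (-1.08, adjusted p = 0.00560) and Ythdf1 (-1.13, 0.00487) held. The rises were not called there and came to 0.43 for Cnot6, 0.53 for Ythdf3, 0.28 for Pan3 and 1.47 for Zfp36l1. Against IgG none of these relatives was called. There Cnot6 was 0.37, Ythdf3 0.34, Pan3 0.05, Zfp36l1 0.78, Cnot8 -0.48 and Ythdf1 -0.68. IgG differed from uninjected embryos by 0.66 for Cnot6, 0.82 for Ythdf3, 0.79 for Pan3, -0.23 for Cnot8 and -0.06 for Ythdf1, none called. Zfp36l1 was not tested there.

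Several members differed between pools of embryos within 1 and the same group, a comparison added after the values had been seen. In wild type, replicate 2 was lower than replicate 1 in Cnot7 (log2 difference -2.65, SE 0.41, edgeR adjusted p = 1.59e-05), Cnot6l (-2.57, adjusted p = 4.6e-06), Btg4 (-2.31, adjusted p = 0.0282) and Pan2 (-2.01, adjusted p = 0.0194). These were 4 of 8 members tested, where 38.5% of all genes were called (1504 higher and 1189 lower by TMM, 2151 and 750 by total counts). At 500000 counts or more the wild-type differences of Btg4 (-1.65, adjusted p = 0.378) and Pan2 (-1.71, adjusted p = 0.289) were not called, while those of Cnot7 and Cnot6l were, where 8.24% of all genes were called. In maternal deletion, replicate 2 was again lower in Btg4 (-1.76, adjusted p = 0.0144), Cnot6l (-1.22, adjusted p = 0.00534) and Cnot7 (-0.97, adjusted p = 0.0307), 3 of 9 members, where 11% of all genes were called (537 higher and 360 lower by TMM, 794 and 233 by total counts). By total counts the difference of Cnot7 was not called (-0.73, adjusted p = 0.0637), and Zcchc6 was called higher (1.41, adjusted p = 0.0346), where 12.6% of all genes were called.

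In both injected groups of the TrimAway experiment, Btg4, Cnot6l and Cnot7 were higher in replicate 3 than in replicate 1, and Cnot1 was lower. In anti-SMARCA5 the log2 difference was 3.25 for Btg4 (SE 0.50, edgeR adjusted p = 9.66e-05), 1.90 for Pan2 (adjusted p = 0.000467), 1.67 for Cnot6l (adjusted p = 0.00241), 1.50 for Cnot7 (adjusted p = 0.0184) and -0.68 for Cnot1 (adjusted p = 0.0412). These were 5 of 9 members, against 26.0% of all genes (1196 higher and 1691 lower by TMM, 805 and 2045 by total counts). In IgG it was 2.06 for Btg4 (adjusted p = 0.0190), 1.53 for Cnot6l (0.0143), 1.53 for Cnot7 (0.0240) and -0.78 for Cnot1 (0.0453), 4 of 9 members against 6.69% of all genes. These IgG replicates differ in Trim21 RNA as well, which cannot be told apart from the pool. The calls of Cnot1 were near the threshold. In IgG its call was lost by total counts (adjusted p = 0.0904), where 2.13% of all genes were called, with no filter on low counts (0.0877) and at 500000 counts or more (0.0674), and in anti-SMARCA5 with no filter (0.0819). Zcchc11 differed by -1.79 in anti-SMARCA5 (adjusted p = 0.0655), which passed by total counts (-2.16, adjusted p = 0.0317). In uninjected embryos 0 of 9 members were called by edgeR, where 0.658% of all genes were called (63 higher and 6 lower by TMM, 21 and 5 by total counts). There 1 member had an unadjusted p under 0.05 (Cnot1, -0.74), as did 14.8% of all genes, and DESeq2 called 0 members and 3.22% of all genes. Only 5 uninjected embryos of replicate 3 were available, and whether the pool difference itself differs between injected and uninjected embryos was not tested.

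Btg4 shows the size of these differences between pools. Its medians were 263 CPM in anti-SMARCA5 replicate 1 (55.0 to 2022), 576 in replicate 2 (151 to 1150) and 2573 in replicate 3 (611 to 8551). In IgG they were 322 in replicate 1 (145 to 425) and 588 in replicate 3 (270 to 5908), and in uninjected embryos 453 (239 to 879) and 416 (70.4 to 699). Cnot7 medians went from 527 to 3222 CPM in anti-SMARCA5 and from 483 to 1062 in IgG. The highest Btg4 values of both injected groups came from replicate 3, and uninjected embryos of that number had a median near that of replicate 1.

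Ythdf2 was not called between pools in any group by TMM (by total counts it rose by 0.92 in wild-type replicate 2, adjusted p = 0.00502), with log2 differences from -0.89 in IgG to 0.47 in wild type. Zcchc6 was not called between pools by TMM, and was called higher in deletion replicate 2 by DESeq2 (1.16, adjusted p = 0.0142). The summed oocyte transcripts moved with the pools, with medians of 4773 and 1935 CPM in wild type replicates 1 and 2, 2940 and 6477 in anti-SMARCA5 replicates 1 and 3, and 2506 and 3632 in IgG. The 2-cell markers had medians of 1592 and 267 CPM in anti-SMARCA5 replicates 1 and 3. Their part in the pool differences of the members was not tested.

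Whether the deletion effect differed between collections was tested as an interaction, which called 0 of 10 members by edgeR, where 1.08% of all genes were called (108 positive and 15 negative by TMM, 95 and 46 by DESeq2-type size factors). There 2 members had an unadjusted p under 0.05, as did 15.6% of all genes, and DESeq2 called 0 members and 2.53% of all genes. The difference was 1.62 for Cnot7 (SE 0.53, adjusted p = 0.103) and 1.25 for Cnot6l (SE 0.49, adjusted p = 0.185). Without the libraries that went against their labels both were called, Cnot7 at 2.15 (adjusted p = 0.000737) and Cnot6l at 1.42 (adjusted p = 0.0366), where 11.7% of all genes were called. The libraries left out are all of replicate 2. There A04 lay below its group mean and G05 and H05 above theirs for both genes, so leaving them out raises both differences by itself. For anti-SMARCA5 against IgG, replicate 3 minus replicate 1 called 0 of 9 members by edgeR, where 0.316% of all genes were called. There 2 had an unadjusted p under 0.05, as did 14.5% of all genes, and DESeq2 called 0 members and 2.40% of all genes. The largest differences of effect were -1.80 for Zcchc11 (SE 0.87, adjusted p = 0.331), 1.24 for Btg4 (SE 0.73, adjusted p = 0.440) and 1.12 for Pan2 (SE 0.51, adjusted p = 0.292). The IgG libraries of replicate 1 held no Trim21 RNA. A difference of the anti-SMARCA5 effect cannot be told apart here from a difference between the controls.

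**Figure D4:**
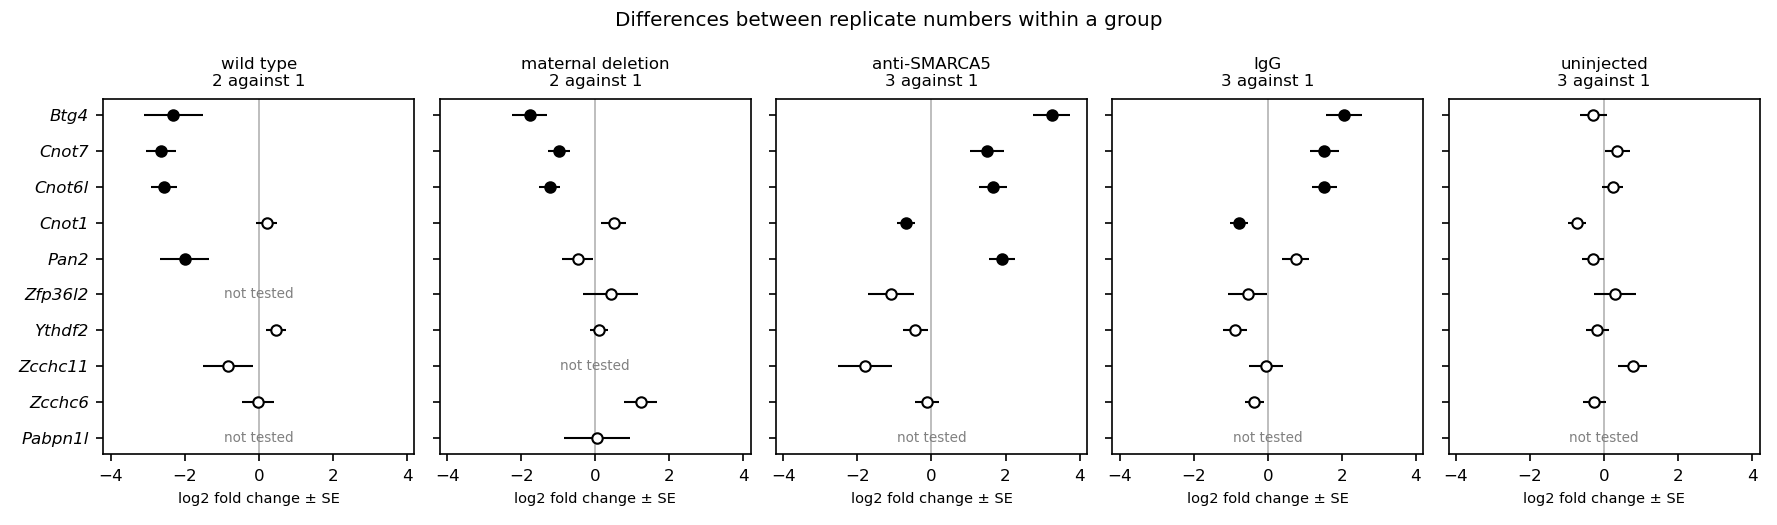
Log2 fold change of each member with its standard error (horizontal axis) between replicate numbers within each of the 5 groups, filled where the edgeR adjusted p was under 0.05. Btg4, Cnot7 and Cnot6l are lower in replicate 2 than 1 of both deletion groups and higher in replicate 3 than 1 of both injected groups, and no member is filled in uninjected embryos.

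Between single embryos of the same group and pool, Btg4, Cnot7 and Cnot6l varied together. After the mean log2(CPM + 1) of each group and replicate number had been subtracted, Btg4 and Cnot7 had Pearson r 0.73 (Spearman rho 0.67) over 50 embryos of the deletion experiment and r 0.57 (rho 0.56) over 66 embryos of the TrimAway experiment. Without the 2 embryos farthest from the median of Btg4, r was 0.64 and 0.52. For Btg4 and Cnot6l r was 0.69 (rho 0.67) and 0.56 (rho 0.55), and for Cnot7 and Cnot6l 0.63 (rho 0.71) and 0.77 (rho 0.76). Ythdf2 leaned the other way from Btg4, with r -0.24 and -0.30, the second becoming -0.19 without the 2 farthest embryos. In the TrimAway experiment Btg4 and Cnot1 had r -0.43 (rho -0.41). The points share each library's depth and scaling, and no p is given. The lowest Cnot7 deviation of the deletion experiment belonged to the A04 library and the highest Btg4 deviation to the G05 library, both among those that went against their labels. Without the libraries that went against their labels, over 47 embryos of the deletion experiment, r was 0.62 for Btg4 and Cnot7, 0.66 for Btg4 and Cnot6l, 0.63 for Cnot7 and Cnot6l and -0.16 for Btg4 and Ythdf2.

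Embryos that held more Btg4 than others of their pool also held more of the oocyte transcripts, with r 0.61 (rho 0.58) in the deletion experiment and 0.80 (rho 0.75) in the TrimAway experiment between Btg4 and the summed level of the 18 genes. Without the libraries that went against their labels, that r was 0.51 in the deletion experiment and 0.81 in the TrimAway experiment. For Cnot7 and Cnot6l it was then 0.14 and 0.16 in the deletion experiment, and 0.63 and 0.60 in the TrimAway experiment. With the summed 2-cell markers Btg4 had r 0.11 (rho 0.19) in the deletion experiment, 0.16 without those libraries, and r -0.55 (rho -0.45) in the TrimAway experiment. Among 6639 genes with a mean of at least 20 CPM in the deletion experiment, the 3 genes whose values were most like those of Btg4 over the 50 embryos were E330034G19Rik (r 0.91, 0.88 without the 2 farthest embryos), Obox5 (0.89, 0.86) and Klhdc2 (0.88, 0.84). Obox5 is an oocyte homeobox gene. Cnot7 ranked 65 and Cnot6l 115 in that order.

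**Figure D5:**
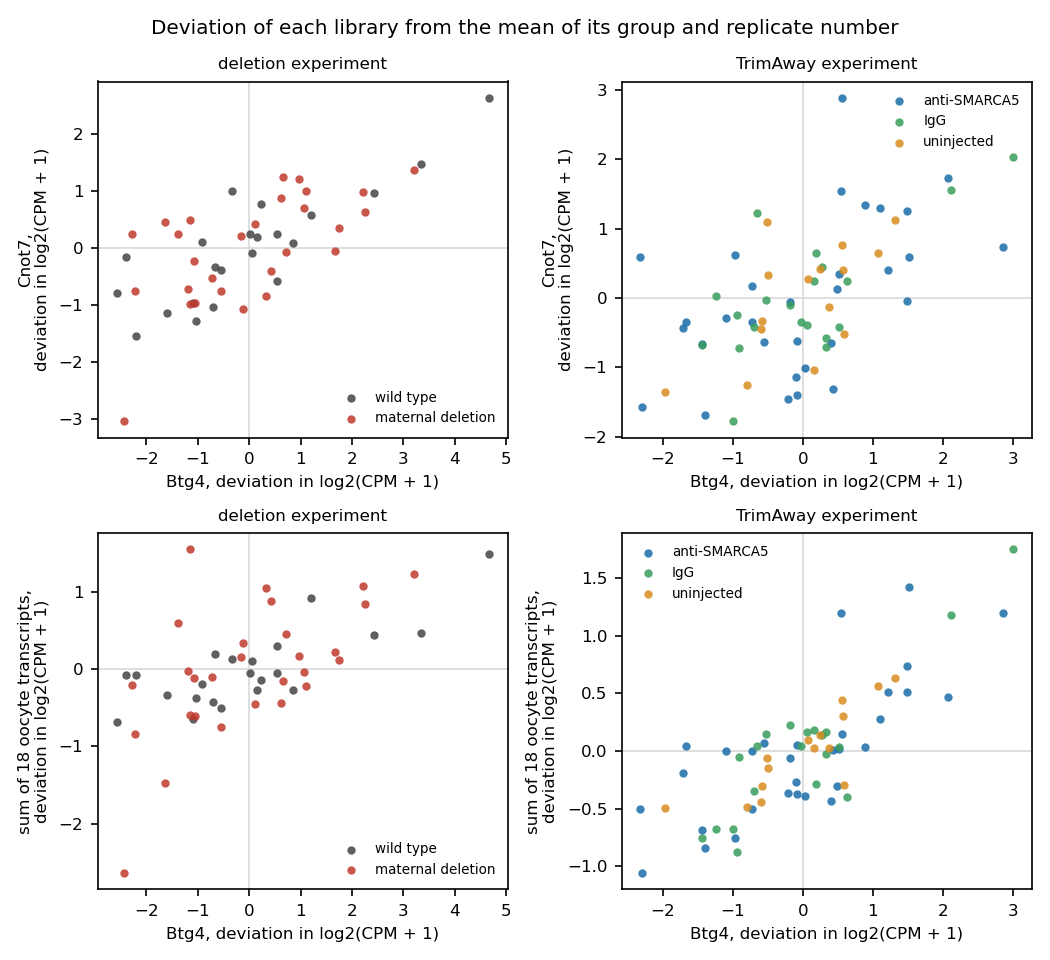
Deviation of each embryo library from the mean of its group and replicate number in log2(CPM + 1), Btg4 on the horizontal axis and Cnot7 (top) or the sum of 18 oocyte transcripts (bottom) on the vertical axis, for the deletion experiment (left) and TrimAway (right). Points run from lower left to upper right in all 4 panels, and in the deletion experiment the lowest Cnot7 point is the A04 library.

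The rest of the decay pathway was read from lists of 109 other genes in the tables. With the deletion 27 of 91 tested were higher and 21 lower, with a median log2 fold change of 0.17 against 0.18 for all genes (25 and 26 by total counts). The share of all genes called was 30.3% higher and 26.4% lower, against which the counts of each list below are to be set. Decapping factors, which remove the 5′ cap after deadenylation, had 7 higher (Dcp1a, Dcp2, Edc4, Lsm1, Lsm6, Lsm14a and Lsm14b) and 2 lower (Lsm2 and Xrn1) of 15, with a median of 0.82. Subunits of the exosome and its SKI helper, which degrade RNA from the 3′ end, had 3 higher (Exosc8, Ttc37 and Hbs1l) and 6 lower (Exosc2, Exosc3, Exosc4, Exosc7, Dis3 and Dis3l) of 13, with a median of -1.04. Terminal nucleotidyltransferases and linked factors had 4 higher (Papd7, Fam46b, Fam46c and Lin28a) and 1 lower (Tut1) of 9, with a median of 1.14. Poly(A)-binding proteins had 1 higher (Pabpc1l, the form of oocytes and early embryos) and 2 lower (Pabpc1 and Pabpn1) of 4. Other CCR4-NOT subunits and BTG/TOB proteins had 2 higher (Cnot2 and Cnot4) and 2 lower (Cnot10 and Tob2) of 12. Other deadenylases had 2 higher (Angel1 and Angel2) and 1 lower (Pnldc1) of 7. Proteins that bind AU-rich elements or other 3′ sequences had 5 higher and 4 lower of 14, and m6A readers, writers and erasers 3 and 3 of 16. Of the oocyte transcripts these pathways are known to clear, 15 were higher and 1 (Ccnb1) lower of 16, with a median of 2.62.

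In anti-SMARCA5 against uninjected embryos 24 of 101 tested pathway genes were higher and 11 lower, with a median of 0.12 against 0.13 for all genes, of which 17.5% were higher and 10.4% lower. By total counts these were 2 higher and 20 lower, with a median of -0.32 against -0.29, so the direction of this pathway total follows the scaling. By TMM, binders of AU-rich and other 3′ elements had 9 higher and 3 lower of 16, with Zfp36l1, Elavl2, Cpeb1 and the 3 Tnrc6 genes among the higher ones, against 1 and 4 by total counts. The exosome list had 2 higher and 4 lower of 14, against 0 and 6 by total counts. Of 16 cleared oocyte transcripts 4 (Gdf9, Bmp15, Zp2 and Plat) were higher and 1 (Zp3) lower, against 2 and 2 by total counts. Against IgG 1 of 100 was higher (Fam46c) and 0 lower, and 0 were called by total counts.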

How the data were processed

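Read counts per gene were deposited by the authors in 2 tables, 1 per experiment, as whole numbers with no normalization. Per the submitters' processing notes, reads were trimmed with Trim Galore 0.6.5 and cutadapt 2.3 and aligned with HISAT2 2.1.0 to GRCm38. The handling of strand and of reads with several matches, and the annotation release, are not given in the sources used here. Each table held 25965 lines, and 57 gene identifiers with more than 1 line were summed, which left 25900 genes. Odd low counts outnumbered even ones (134662 values of 1 and 30228 of 2), so counting error taken from single counts can be too small.

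Groups and replicate numbers came from the sample labels. Of 135 embryo libraries 19 with under 100000 counts were left out. Over 1369 pairs of libraries of a group, the lowest chi-square per degree of freedom was 4.53, so none was treated as a duplicate. Tests used edgeR 4.0.16 under R 4.3.3 (TMM scaling, filterByExpr, robust quasi-likelihood F test, Benjamini-Hochberg over all genes tested, called under 0.05), each comparison on its own groups without the replicate number. The standard error is the log2 fold change divided by the square root of F. The code was tested on simulated data. The submitters' design text describes a replicate number as a shared pool or collection, so it can pair groups. Same-numbered group means deviated together with a correlation over genes of 0.464 for the deletion, 0.526 for anti-SMARCA5 against IgG, 0.0704 against uninjected embryos and 0.382 for IgG against uninjected embryos.

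DESeq2 1.42.0, other scalings, depth minimums, filters, the replicate block and left-out replicates or libraries were alternatives. The members, the lists and the tests were chosen with earlier results of these data known. All 10 members are named, relatives and pathway genes only beside them, and the genes like Btg4 are the 3 with the highest Pearson correlation of log2(CPM + 1) after removal of pool means. Exon overlaps used GENCODE, near copies BLAST 2.17.0 (at least 300 bases at 90% identity).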

Additional observations from a re-analysis of the deposited data

Results flagged for a closer look

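For Cnot1 the effect of the maternal deletion differed from that of TrimAway against IgG by -0.83 on the log2 scale (SE 0.28, edgeR adjusted p = 0.0267 in 1 fit of 4 groups), with lower values in maternal deletion than in wild type and near-equal values in anti-SMARCA5 and IgG. The call did not hold with the replicate number as a block, with scaling by total counts or without the libraries that went against their labels. In wells that held no embryo, which no comparison used, 2 members had more than 3 counts. Btg4 had 7 of 823 counts in well G03 and 4 of 1875 counts in well H03, and Cnot7 had 5 of 453 counts in well F05. The labels give these wells no replicate number, and all were on the sequencing lane of replicate 2 of the deletion experiment. No empty well was available for the other lanes. Embryo libraries used here held at least 109007 counts, and the origin of the counts in empty wells was not tested.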

How the results depend on the processing

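Low counts of Zfp36l2, Pabpn1l and Zcchc11 and the loss of IgG replicate 2 limited what could be seen. Over all alternatives, 738 values of single members kept their direction and their side of the threshold, 32 passed it only in the alternative, 25 lost it and 55 changed sign. With the replicate block, 3 members were called for anti-SMARCA5 against IgG (25.8% of all genes) and 0 for the deletion effect minus the TrimAway effect (11.7%), and the block changed no other count of called members by over 1.5 times. Alternatives added after the data had been seen were thinning, the block together with the libraries left out that went against their labels, and all comparisons between replicates of a group. The share of all genes called stands in parentheses. With that block 6 members were called for the deletion (62.1%) and 3 for anti-SMARCA5 against IgG (25.3%). With DESeq2, 1 was called for anti-SMARCA5 against IgG (12.3%) and 1 for IgG against uninjected embryos (2.29%). With no filter on low counts, 1 was called for anti-SMARCA5 against IgG (13.5%), 1 for the deletion effect between collections (3.23%) and 2 between wild-type replicates (19.5%). At 500000 counts or more, 2 were called between wild-type replicates (8.24%) and 2 for the deletion minus the TrimAway effect (14.6%). Without the libraries that went against their labels, 2 were called for the deletion effect between collections (11.7%) and 0 for the deletion minus the TrimAway effect (27.4%). Replicate numbers were also left out 1 at a time. For the deletion, 3 of 10 members were called without replicate 1 (39.9%) and 2 of 8 without replicate 2 (43.8%). For anti-SMARCA5 against IgG, 0 to 2 were called (2 without replicate 3, where 3.78% of all genes were called). For anti-SMARCA5 against uninjected embryos, 4 were called without replicate 2 (28.4%). In that comparison 3 were called without replicate 3, where 2002 of 11142 genes were called, and 0 without replicate 1, where 1 of 10544 was. The cause of the sign changes was not tested. Without 1 replicate number the deletion gave log2 fold changes of -1.41 to 0.39 for Zcchc11, -1.10 to 0.21 for Zcchc6, -0.0044 to 1.37 for Cnot6l and -0.16 to 1.48 for Pan2. For anti-SMARCA5 against IgG the ranges were -0.22 to 0.092 for Cnot1, -0.12 to 0.37 for Zfp36l2 and -0.32 to 0.57 for Zcchc11. For anti-SMARCA5 against uninjected embryos they were -0.25 to 0.089 for Cnot1, -0.011 to 1.63 for Zcchc11, -0.052 to 2.62 for Btg4, -0.060 to 0.14 for Zcchc6 and -0.34 to 1.28 for Pan2. For IgG against uninjected embryos they were -0.28 to 0.41 for Ythdf2, -0.60 to 0.48 for Pan2, -0.58 to 1.79 for Btg4, -0.0087 to 0.0084 for Cnot1 and -0.10 to 1.20 for Cnot6l. With total counts as the scaling, the changed signs were Zcchc6 -0.39 and Pan2 -0.0054 in anti-SMARCA5 against uninjected embryos, Zcchc6 -0.082 and Ythdf2 -0.12 in IgG against uninjected embryos, Cnot1 -0.00034 for the deletion effect between collections, Cnot1 -0.092 and Cnot7 0.11 for the anti-SMARCA5 effect between replicates, and Zcchc6 0.36 between wild-type replicates. With DESeq2-type size factors they were Zcchc6 -0.086 in anti-SMARCA5 against uninjected embryos, Cnot1 -0.087 for the deletion effect between collections, Pan2 0.0069 for the deletion minus the TrimAway effect and Pabpn1l -0.023 between deletion replicates. DESeq2 gave Cnot7 0.052 for the anti-SMARCA5 effect between replicates, and Pabpn1l -0.025 and Ythdf2 -0.0070 between deletion replicates. With thinning Cnot1 was 0.054 in anti-SMARCA5 against IgG. With no filter Cnot7 was 0.0030 for the anti-SMARCA5 effect between replicates. With all embryo libraries that had counts, Cnot1 was 0.14 in anti-SMARCA5 against IgG, Zcchc6 -0.00065 against uninjected embryos, Ythdf2 -0.038 and Pan2 0.00052 in IgG against uninjected embryos, and Cnot1 -0.027 for the deletion effect between collections. At 500000 counts or more, Cnot1 was 0.0013 in anti-SMARCA5 against IgG, Zcchc6 -0.028 against uninjected embryos, Btg4 -0.37 for the deletion effect between collections, Cnot7 0.0015 for the anti-SMARCA5 effect between replicates, Pan2 0.10 for the deletion minus the TrimAway effect, Cnot1 -0.014 between wild-type replicates, and Zfp36l2 -0.012, Pabpn1l -0.049 and Ythdf2 -0.011 between deletion replicates. Without the libraries that went against their labels, Cnot1 was -0.0011 and Pabpn1l 1.57 for the deletion effect between collections, Zcchc6 0.016 and Pan2 0.17 for the deletion minus the TrimAway effect, Zcchc6 0.055 between wild-type replicates and Ythdf2 -0.049 between deletion replicates. Replicates were not left out of the interactions, and leaving out replicate 2 of IgG against uninjected embryos, which had no library used, was not run.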
